A study of Mus musculus with 7 samples.

Results

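Crypt base stem cell markers were followed here as a set of 10 genes, Lgr5, Olfm4, Ascl2, Smoc2, Tnfrsf19, Cdca7, Slc12a2, Rgmb, Soat1 and Scn2b, chosen by name among the gene probes of the arrays. They were represented by 18 of 41174 gene probes, or 10 of 28508 gene names. The 7 arrays measured GFP-high cells sorted from mouse intestine, each against RNA of whole small intestine. Dll1-EGFP-ires-CreERT2 mice, in which the Dll1 promoter drives GFP, gave CD24 high, CD24 medium and CD24 low cells, with 2 biological replicates (numbered 1 and 2) of each. Lgr5-EGFP-ires-CreERT2 mice, in which the Lgr5 promoter drives GFP, gave 1 sample. The labels give no age, sex, treatment or strain for the mice and do not say which animals a replicate came from, so p-values measure the spread between these samples. As background, the Lgr5 reporter cassette is a knock-in at the Lgr5 gene and is known to label crypts in patches.

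Crypt base columnar cells are the dividing stem cells of the small intestinal epithelium and lie between Paneth cells at the crypt bottom. They depend on Wnt signalling, which R-spondin amplifies through receptors of the Lgr family, and on Notch signals from neighbouring cells that carry ligands such as Dll1. Dll1 itself marks young secretory cells, and CD24 is a surface protein that is abundant on Paneth cells. The 10 markers came into use because they fall as cells leave the crypt base, but they do not share 1 function: they include receptors, secreted proteins, a transcription factor, a cotransporter, a channel subunit and an enzyme.

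To show what the regulatory DNA of the markers looks like, the 250 bases upstream of the annotated start were taken from RefSeq (GRCm38.p6). This was done for 7 markers, in 10 windows. Lgr5 and Smoc2 had no matched entry, and Slc12a2 was left out of the search. Both strands were searched for CTTTGA and CTTTGT (Tcf/Lef, the factors at the end of the Wnt pathway), CAGCTG (an E-box, bound by basic helix-loop-helix factors such as Ascl2) and TGGGAA (the core of the RBPJ site of Notch signalling). Taken singly, these letters were found in 13.8, 16.5, 13.0 and 21.6% of all 32851 windows of that length. Any of them occurred in 5 of the 10 windows, belonging to 5 of the 7 markers. The share of all windows with any of the 4 was not counted, and it cannot be below the largest single share. No enrichment is therefore read from this count. The windows of 4 markers, Tnfrsf19, Scn2b, Olfm4 and Cdca7, are shown, with the matches in capitals. All 4 were higher on the Lgr5 array than in every group of Dll1 cells. Of them, only Tnfrsf19 was also called higher in CD24 high than in the other Dll1 cells. The other match was in 1 of the 3 windows of Rgmb.
Tnfrsf19: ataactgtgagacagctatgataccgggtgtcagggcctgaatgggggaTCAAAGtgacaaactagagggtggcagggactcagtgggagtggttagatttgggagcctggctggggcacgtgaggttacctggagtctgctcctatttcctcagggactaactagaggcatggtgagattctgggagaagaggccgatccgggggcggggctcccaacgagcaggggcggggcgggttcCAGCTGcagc
Scn2b: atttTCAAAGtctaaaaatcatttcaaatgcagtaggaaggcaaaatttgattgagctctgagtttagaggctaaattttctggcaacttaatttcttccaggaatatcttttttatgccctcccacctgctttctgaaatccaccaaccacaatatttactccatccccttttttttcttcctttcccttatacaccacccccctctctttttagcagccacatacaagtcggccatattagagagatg
Olfm4: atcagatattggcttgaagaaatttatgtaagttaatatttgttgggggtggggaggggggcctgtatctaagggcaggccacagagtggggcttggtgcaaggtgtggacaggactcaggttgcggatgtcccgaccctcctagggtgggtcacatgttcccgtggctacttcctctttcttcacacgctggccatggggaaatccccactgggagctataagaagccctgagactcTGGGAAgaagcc
Cdca7: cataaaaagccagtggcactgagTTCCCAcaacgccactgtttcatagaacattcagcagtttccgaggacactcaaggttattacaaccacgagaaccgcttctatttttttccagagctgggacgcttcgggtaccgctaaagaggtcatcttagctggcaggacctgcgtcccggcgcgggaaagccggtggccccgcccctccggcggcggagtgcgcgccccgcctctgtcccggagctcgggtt
The Tnfrsf19 window (chr14:61037988-61038237, minus strand) held CTTTGA in reverse orientation from base −201 and CAGCTG from base −10, counted from the start. A second Tnfrsf19 window held none of the motifs. Scn2b (chr9:45117626-45117875, plus strand) held CTTTGA in reverse orientation from base −246, Olfm4 (chr14:80000052-80000301, plus strand) held TGGGAA from base −12, and Cdca7 (chr2:72475969-72476218, plus strand) held it in reverse orientation from base −227. A match is a description of the letters only, and no binding was measured here.

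Levels below are log2 of sample over reference after normalisation within each array, so that 0 is the level of whole small intestine. The share of gene spots whose sample signal passed background was lowest for CD24 high, 42.5 to 44.4%, against 52.8 to 60.5% elsewhere, and no spot was saturated. The number of arrays limits the precision. Arrays with the same scan date in the file headers were taken to be on 1 slide. By this rule, the first replicates of CD24 high and CD24 medium shared slide 1 with the Lgr5 array. Slide 2 carried the remaining 4. The sorted protein and its transcript went together: Cd24a was 3.34 and 3.47 for CD24 high, 0.88 and 0.74 for CD24 medium, −0.68 and −0.59 for CD24 low and −0.11 on the Lgr5 array. Dll1 was 2.52 to 2.81 on the 4 CD24 medium and CD24 low arrays, but 0.61 and −0.04 in CD24 high and 0.88 on the Lgr5 array. The median level of 13 Paneth cell genes was highest on the CD24 high arrays, as given with the lists further on.

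No marker was found on the Lgr5 array alone. All 10 stood well above background there, 9 did so on all 6 Dll1 arrays, and Scn2b did so on 5 of 6, missing CD24 high replicate 2. The markers differed instead in how far Dll1 cells lay below the Lgr5 array. Olfm4, Ascl2, Slc12a2, Cdca7 and Scn2b were higher on the Lgr5 array than in every Dll1 group and passed no test between Dll1 groups. The Lgr5 array and the CD24 low arrays shared no slide, and with slide as a term the call of Ascl2 over CD24 low ended (1.21, limma adjusted p = 0.061), while those of the other 4 were kept. Lgr5, Tnfrsf19, Rgmb, Soat1 and Smoc2 were higher in CD24 high than in CD24 medium and CD24 low, and among these Soat1, Smoc2 and Rgmb did not pass the test of the Lgr5 array over CD24 high. The further probes of these 3 genes gave smaller gaps between CD24 high and CD24 medium, as described after the single markers.

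**Figure D1:**
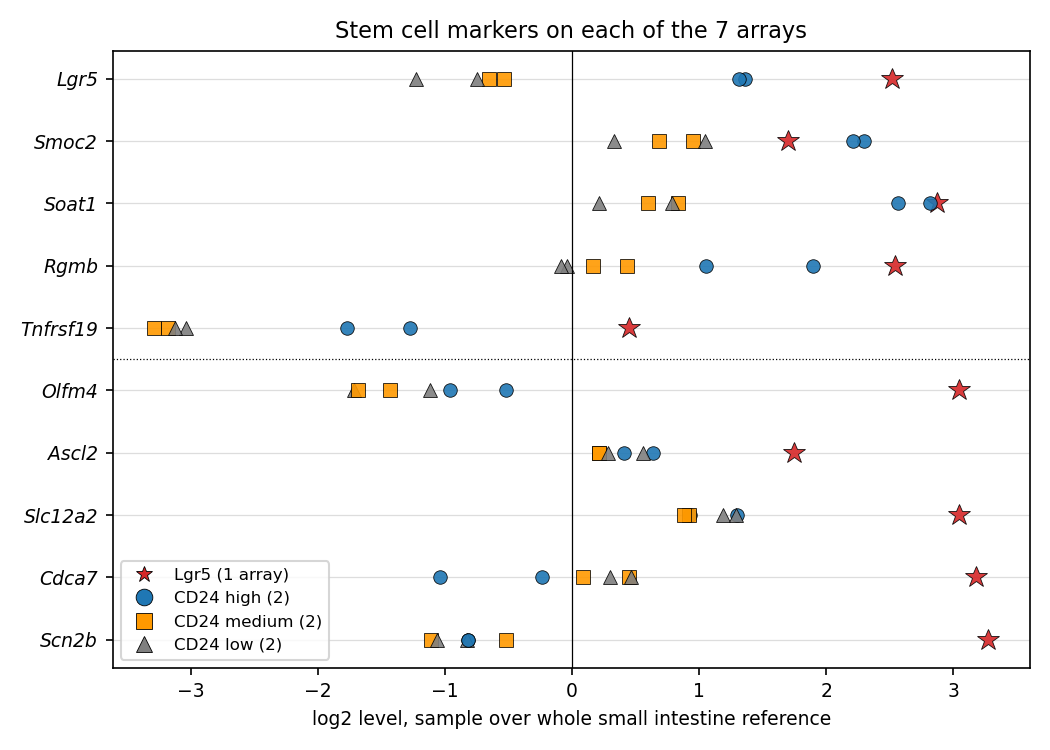
Level of each marker on each of the 7 arrays, by its brightest probe, as log2 of sample over whole small intestine RNA on the horizontal axis. Each symbol is 1 array. Above the dotted line the CD24 high circles lie to the right of the CD24 medium squares for the 5 markers called higher there. Below it the Lgr5 star stands apart from all Dll1 arrays. The star is also rightmost for Lgr5, Tnfrsf19, Rgmb and, narrowly, Soat1. Of all genes, 84.6 to 87.2% did not overlap between the Lgr5 array and a Dll1 group.

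In CD24 high over CD24 medium, limma called 5 of the 10 markers higher and 0 lower at an adjusted p under 0.05, where 13.2% of all genes were called higher and 7.36% lower (20.5% in all, either way). The median difference of the 10 was 1.00, against −0.0013 for all 17901 genes. The same 5 markers were called in CD24 high over CD24 low, with 11% of all genes called higher, 6.73% lower and 17.7% in all, and a median of 1.11. In CD24 medium over CD24 low 0 of 10 were called, 0 of them had an unadjusted p under 0.05, and 0.112% of all genes were called. Over CD24 high, the Lgr5 array was higher for 7 of 10 and lower for 0, beside 14.7% of all genes called higher, 20.8% lower and 35.4% in all, with a median of 1.58. Over CD24 medium and over CD24 low it was higher for 9 of 10 each time (18.9% and 21.8% of all genes were called, 8.76% and 10% higher and 10.1% and 11.8% lower), with medians of 2.57 and 2.70. These counts include Lgr5, whose reporter chose the cells of that array. Without it, the Lgr5 array was higher for 6, 8 and 8 of 9 markers over CD24 high, CD24 medium and CD24 low, with medians of 1.93, 2.24 and 2.60. These comparisons share arrays, so they are given side by side and not as independent evidence of each other. With 1 Lgr5 array, the spread behind its tests comes from the Dll1 groups alone. As these are bulk samples, more cells of a type and more RNA per cell cannot be told apart in any of these differences.

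**Figure D2:**
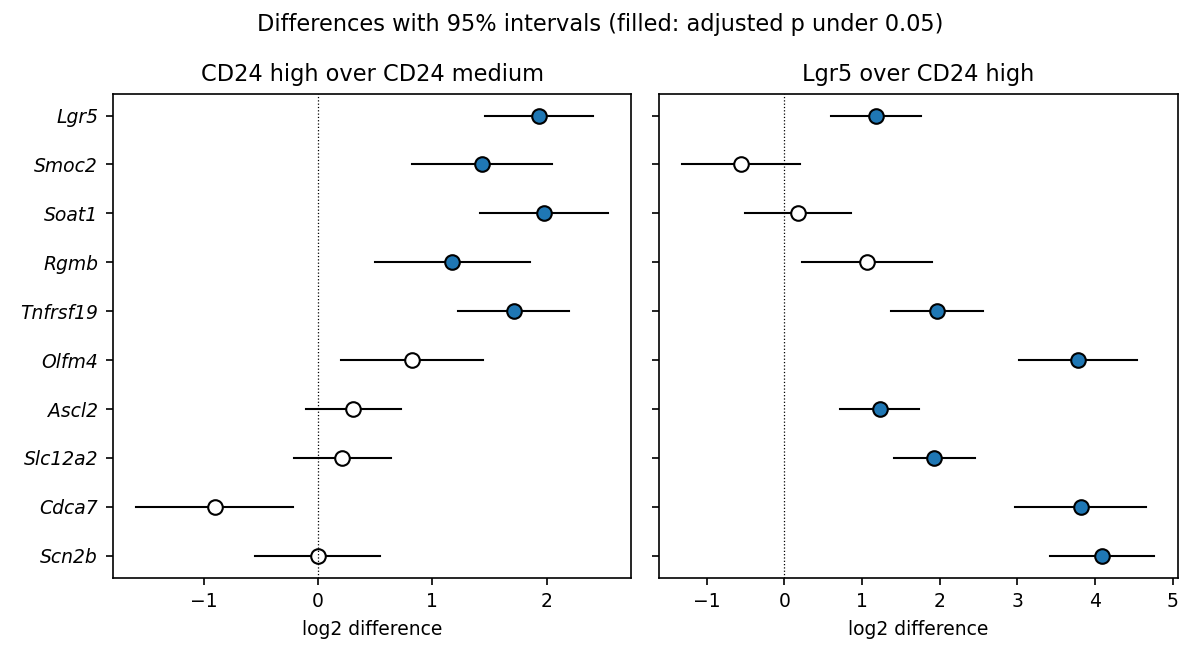
Log2 difference of each marker (horizontal axis) for CD24 high over CD24 medium on the left and Lgr5 over CD24 high on the right, with 95% intervals from limma. Filled points passed an adjusted p of 0.05, 5 on the left and 7 on the right, and the interval of Soat1 for Lgr5 over CD24 high spans 0.

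Among the receptors, Lgr5, which binds R-spondins and whose reporter chose the cells of the Lgr5 array (probe at chromosome 10, 114888847 to 114888906, mm9), was 2.51 on that array, 1.36 and 1.31 for CD24 high, −0.66 and −0.54 for CD24 medium and −1.23 and −0.75 for CD24 low. The Lgr5 array over CD24 high gave 1.18, or 2.26-fold (SE 0.24, limma adjusted p = 0.011), which is a check of the sort. Within the Dll1 cells, which Lgr5 did not choose, CD24 high exceeded CD24 medium by 1.93, or 3.82-fold (SE 0.20, limma adjusted p = 0.0018), and CD24 low by 2.32, or 5-fold (adjusted p = 0.00077). The 3 Dll1 groups did not overlap for Lgr5, but the difference of 0.39 between CD24 medium and CD24 low did not pass (interval −0.09 to 0.86). Of all genes, 67% did not overlap between CD24 high and CD24 medium, 61.6% between CD24 high and CD24 low and 41% between CD24 medium and CD24 low. CD24 high stood 62.2% of the log2 distance from CD24 medium to the Lgr5 array. The sort itself set the upper end of that distance, so the share is descriptive only.

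Tnfrsf19, a tumour necrosis factor receptor family member also called Troy and a Wnt target of the crypt base (chromosome 14, 61582948 to 61583007), was 0.45 on the Lgr5 array, −1.27 and −1.77 for CD24 high, −3.18 and −3.29 for CD24 medium and −3.04 and −3.12 for CD24 low. It was the 1 marker whose level on the Lgr5 array was under 1, and all 6 Dll1 arrays were below whole intestine. CD24 high exceeded CD24 medium by 1.71 (3.27-fold, SE 0.20, limma adjusted p = 0.0031), and the Lgr5 array exceeded CD24 high by 1.97 (3.92-fold, SE 0.25, adjusted p = 0.0019). With the sample channel alone, scaled by quantiles, the first of these was 0.93 (adjusted p = 0.037). A second Tnfrsf19 probe was not well above background in the sample channel of any array, so this marker rests on 1 probe.

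Rgmb, a membrane-anchored co-receptor for bone morphogenetic proteins (chromosome 17, 15941859 to 15941918), was 2.54 on the Lgr5 array, 1.89 and 1.05 for CD24 high, 0.43 and 0.17 for CD24 medium and −0.04 and −0.09 for CD24 low. The 4 groups kept this order without overlap, with an SD of 0.60 between the CD24 high replicates. With so few arrays this is common. Of all genes, 87.2% did not overlap between the Lgr5 array and CD24 high, 67% between CD24 high and CD24 medium and 41% between CD24 medium and CD24 low. The difference of CD24 high over CD24 medium was 1.17 (2.26-fold, SE 0.28, limma adjusted p = 0.032), and that over CD24 low was 1.54 (SE 0.28, adjusted p = 0.014). The first call ended without CD24 high replicate 1 (0.75, adjusted p = 0.07), without CD24 medium replicate 1 (1.31, adjusted p = 0.088) and without CD24 medium replicate 2 (1.04, adjusted p = 0.15), and the second without CD24 low replicate 2 (1.51, adjusted p = 0.063). Lgr5 over CD24 high was 1.07 (SE 0.35, adjusted p = 0.054, interval 0.23 to 1.90), which did not pass, but it did without CD24 high replicate 1 (1.49, adjusted p = 0.01) and without background subtraction (0.92, adjusted p = 0.029).

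Of the secreted proteins, Olfm4, a glycoprotein abundant in crypt base columnar cells (chromosome 14, 80421398 to 80421457), was 3.04 on the Lgr5 array, −0.52 and −0.96 for CD24 high, −1.43 and −1.69 for CD24 medium and −1.71 and −1.12 for CD24 low. Its spot signal before any scaling was 10530 on the Lgr5 array and 197.8 to 417.2 on the Dll1 arrays. The Lgr5 array exceeded CD24 high by 3.78 (13.7-fold, SE 0.32, limma adjusted p = 0.00047), CD24 medium by 4.60 (24.2-fold, adjusted p = 0.00086) and CD24 low by 4.46 (21.9-fold, adjusted p = 0.00088). CD24 high over CD24 medium was 0.82 (SE 0.26, adjusted p = 0.071, interval 0.20 to 1.44). That difference fell to 0.31 with the sample channel alone and passed without either CD24 low array (adjusted p = 0.043 each).

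Smoc2, a secreted calcium-binding matrix protein (chromosome 17, 14540516 to 14540575), had another order. It was 1.70 on the Lgr5 array and higher, at 2.30 and 2.21, in CD24 high, with 0.69 and 0.95 for CD24 medium and 0.33 and 1.05 for CD24 low. CD24 high exceeded CD24 medium by 1.44 (2.71-fold, SE 0.26, limma adjusted p = 0.013) and CD24 low by 1.57 (2.96-fold, SE 0.26, adjusted p = 0.0093). The first call ended without CD24 high replicate 1 (1.39, adjusted p = 0.053), without CD24 high replicate 2 (1.48, adjusted p = 0.055) and without CD24 medium replicate 1 (1.30, adjusted p = 0.07). Lgr5 over CD24 high was −0.56 (SE 0.31, adjusted p = 0.22, interval −1.31 to 0.20). Smoc2 was the 1 marker of 10 that the Lgr5 array did not raise past the threshold over CD24 medium (0.88, adjusted p = 0.1) or over CD24 low (1.01, adjusted p = 0.064). Leaving out CD24 low replicate 1 or 2 brought the comparison with CD24 medium past the threshold (adjusted p = 0.036 each), and leaving out CD24 low replicate 2 that with CD24 low (1.37, adjusted p = 0.023).

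Ascl2, a basic helix-loop-helix transcription factor that maintains the stem cell programme (chromosome 7, 150154439 to 150154498), was 1.75 on the Lgr5 array, 0.64 and 0.41 for CD24 high, 0.22 and 0.21 for CD24 medium and 0.56 and 0.28 for CD24 low. The 6 Dll1 arrays spanned a narrow band above whole intestine, in which CD24 high and CD24 low overlapped. The Lgr5 array exceeded CD24 high by 1.23 (2.34-fold, SE 0.21, limma adjusted p = 0.006), while CD24 high over CD24 medium was 0.31 (adjusted p = 0.26, interval −0.11 to 0.72). Its spot signal was the lowest of the 10 on the Lgr5 array, 575.1, against 127.4 to 227.2 on the Dll1 arrays. Spot signals of different probes are not comparable as amounts.

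Cdca7, a nuclear protein that acts with a chromatin remodeller and is regulated through the cell cycle (chromosome 2, 72324558 to 72324617), was the 1 marker with its lowest levels in CD24 high. It was 3.18 on the Lgr5 array, −0.24 and −1.04 for CD24 high, 0.45 and 0.09 for CD24 medium and 0.30 and 0.46 for CD24 low. The Lgr5 array exceeded CD24 high by 3.82 (14.1-fold, SE 0.35, limma adjusted p = 0.00064) and CD24 medium by 2.91 (7.51-fold, SE 0.35, adjusted p = 0.0043). CD24 high over CD24 medium was −0.91 (SE 0.29, adjusted p = 0.07) and over CD24 low −1.02 (SE 0.29, adjusted p = 0.055), neither past the threshold. Both passed with slide as a term (adjusted p = 0.025 and 0.015), with the sample channel alone (0.028 and 0.023) and without CD24 high replicate 1 (0.026 and 0.022).

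Slc12a2, the sodium, potassium and chloride cotransporter of the basolateral membrane, was 3.04 on the Lgr5 array and 0.88 to 1.29 on the 6 Dll1 arrays, so it lay above whole intestine everywhere. It was 0.93 and 1.29 for CD24 high, 0.92 and 0.88 for CD24 medium and 1.19 and 1.29 for CD24 low, with CD24 high overlapping CD24 low. The Lgr5 array exceeded CD24 high by 1.93 (3.82-fold, SE 0.22, limma adjusted p = 0.0013). CD24 high over CD24 medium was 0.21 (adjusted p = 0.44, interval −0.21 to 0.64).

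Scn2b, an auxiliary beta subunit of voltage-gated sodium channels (chromosome 9, 44937945 to 44938004), was 3.27 on the Lgr5 array, −0.82 and −0.81 for CD24 high, −0.52 and −1.11 for CD24 medium and −0.83 and −1.06 for CD24 low. On CD24 high replicate 2 its spot was not well above background, so that level is only a bound and no fold is given against CD24 high. The fitted difference of the Lgr5 array over CD24 high was 4.09 (SE 0.28, limma adjusted p = 0.00026), and replicate 1, which was well above background, gave 4.09 alone. The Lgr5 array exceeded CD24 medium by 4.09 (17-fold, adjusted p = 0.00083) and CD24 low by 4.22 (18.6-fold, adjusted p = 0.00073). CD24 high over CD24 medium, which rests on the same dim spot, did not pass (−0.0032, adjusted p = 0.99, interval −0.55 to 0.54). Spot signal was 3368 on the Lgr5 array and 66.59 to 223.4 on the Dll1 arrays. In the authors' deposited log10 ratios, taken as log2, the CD24 high replicates fell to −1.32 and −4.65, and the calls over CD24 medium and CD24 low were lost (4.52, adjusted p = 0.079, and 4.83, adjusted p = 0.062).

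Soat1, which esterifies cholesterol for storage (chromosome 1, 158359977 to 158360036), was 2.87 on the Lgr5 array, 2.82 and 2.57 for CD24 high, 0.83 and 0.60 for CD24 medium and 0.78 and 0.21 for CD24 low. CD24 high exceeded CD24 medium by 1.98 (3.93-fold, SE 0.23, limma adjusted p = 0.0031) and CD24 low by 2.19 (4.57-fold, SE 0.23, adjusted p = 0.0018), and lay 91.7% of the way from CD24 medium to the Lgr5 array. Lgr5 over CD24 high was 0.18 (SE 0.29, adjusted p = 0.68), with an interval of −0.51 to 0.86 that leaves room for a difference in either direction.

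The further probes of Soat1, Smoc2 and Rgmb gave smaller differences within the Dll1 cells than the brightest probes used above. Soat1 probe 3 (158358766 to 158358825) was 3.47 on the Lgr5 array, 1.03 and 0.36 for CD24 high and 1.01 and 0.59 for CD24 medium. For it CD24 high over CD24 medium was −0.11 (limma adjusted p = 0.82, here over all probes) and Lgr5 over CD24 high 2.78 (adjusted p = 0.0019). Soat1 probe 2 (158362411 to 158362470) gave 0.93 (adjusted p = 0.021) and 0.70 (adjusted p = 0.062). By this gene's probes, CD24 high thus lay anywhere from the level of CD24 medium to that of the Lgr5 array. Smoc2 probe 2 (14540647 to 14540706) was 1.57 on the Lgr5 array and 0.83 and 0.67 in CD24 high, so here the Lgr5 array was above CD24 high, by 0.82 (adjusted p = 0.14), and CD24 high over CD24 medium was 0.48 (adjusted p = 0.31). Rgmb probe 2 (15956856 to 15956915) gave 0.39 for CD24 high over CD24 medium (adjusted p = 0.14) and 0.95 for Lgr5 over CD24 high (adjusted p = 0.012). Rgmb probe 3 stood well above background on the Lgr5 array alone, at 0.31, and probe 4 on none. Olfm4 probe 2 (80421539 to 80421598) put the Lgr5 array 4.73 above CD24 high (adjusted p = 0.00011) and CD24 high 0.24 above CD24 medium (adjusted p = 0.47). With the mean of all probes of a gene, Smoc2 and Rgmb lost their calls in CD24 high over CD24 medium (adjusted p = 0.059 and 0.11), while Soat1 and Rgmb were called in Lgr5 over CD24 high (1.22, adjusted p = 0.014, and 0.79, adjusted p = 0.03).

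**Figure D3:**
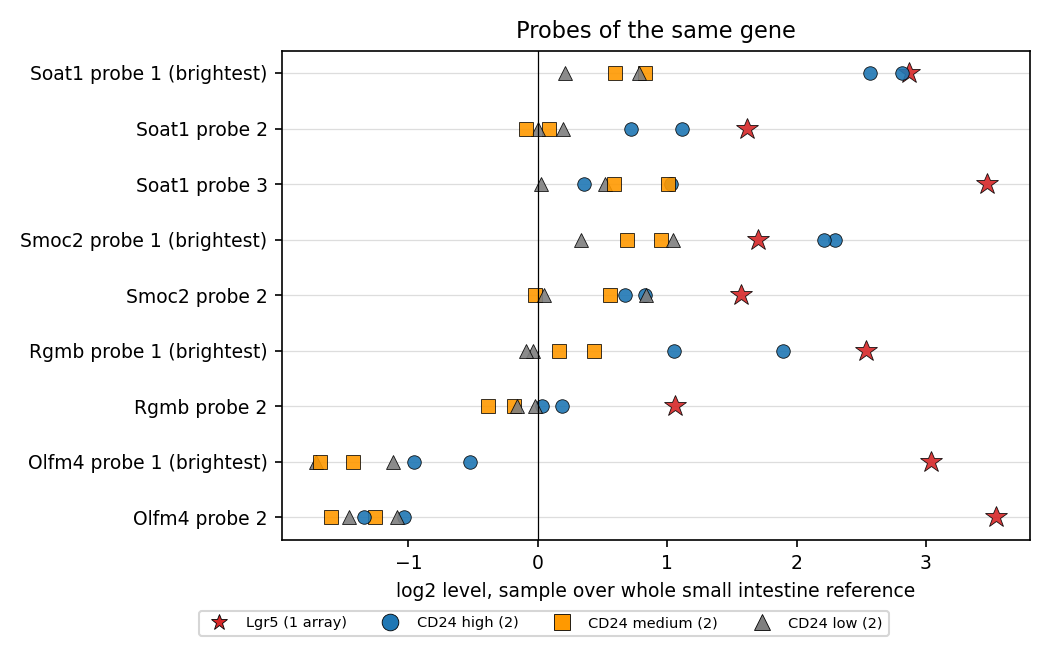
Log2 level over whole small intestine RNA (horizontal axis) for each probe of Soat1, Smoc2, Rgmb and Olfm4 that stood well above background on at least 6 arrays, with 1 symbol per array. The CD24 high circles move from beside the Lgr5 star (Soat1 probe 1) to the CD24 medium squares (Soat1 probe 3), whereas both Olfm4 probes hold the Lgr5 star far to the right.

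Scaling bears on the 5 markers called in CD24 high. Before it, the spot signals of Smoc2 were 1343 and 1281 in CD24 high and 1109 and 1283 in CD24 medium, those of Rgmb 433 and 284.1 against 383.7 and 309.7, and those of Tnfrsf19 224.7 and 152.3 against 162.7 and 161, so these 3 overlapped. Lgr5, at 629.9 and 663.6 against 372.6 and 427.3, and Soat1, at 2836 and 2429 against 1909 and 1470, did not. The share of all genes without overlap is given for normalised levels only, where it was 67%, so nothing is read from this split. The median sample signal of all gene spots was 77.6 and 79.31 on the CD24 high arrays and 94.67 and 102.4 on the CD24 medium arrays. On the Lgr5 array that median was 79.68. Spot signals there were 10470 for Soat1, 4554 for Lgr5, 2852 for Smoc2, 2072 for Tnfrsf19 and 1732 for Rgmb. Each was above both CD24 high arrays. Before scaling Smoc2 was thus higher on the Lgr5 array than in CD24 high, the reverse of its normalised levels. The small gap of Soat1 (0.18) likewise belongs to the normalised levels. The 5 calls of CD24 high over CD24 medium were kept with the sample channel alone under quantile scaling, which also called Cdca7 lower. They were also kept with the authors' deposited ratios, where the median of all genes lay at −0.20. Within slides, CD24 high over CD24 medium was 2.02 and 1.85 for Lgr5, 1.99 and 1.96 for Soat1, 1.91 and 1.52 for Tnfrsf19, 1.61 and 1.26 for Smoc2 and 1.46 and 0.89 for Rgmb on slides 1 and 2. On slide 2 alone, 2 of these were called by limma (Lgr5 and Soat1, adjusted p = 0.049 each), and Tnfrsf19, Smoc2 and Rgmb were not (0.05, 0.16 and 0.16). On slide 1, which holds 1 array each of Lgr5, CD24 high and CD24 medium and allows no test, Lgr5 over CD24 high was 4.09 for Scn2b, 3.56 for Olfm4, 3.41 for Cdca7, 2.12 for Slc12a2, 1.72 for Tnfrsf19 and 1.11 for Ascl2.

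Over the 7 arrays, the marker levels most like that of Lgr5 were those of Rgmb (Pearson r = 0.959), Tnfrsf19 (0.954) and Soat1 (0.94). The least like was Cdca7 (0.387). The 7 include the array whose cells the Lgr5 reporter chose, so its high Lgr5 level was set by the sort and these r are descriptive only. Over the 6 Dll1 arrays alone the order changed: Smoc2 reached 0.983, Soat1 0.946, Tnfrsf19 0.942 and Rgmb 0.919, while Scn2b was at 0.111, Slc12a2 at 0.0017 and Cdca7 at −0.849. These correlations describe 4 groups measured on shared slides, with replicates that are alike. They use the brightest probe of each gene. The further probes of Smoc2, Soat1 and Rgmb had other levels, as given above, so the order holds for the probes used only. Of 17627 genes with a value on all arrays, 13972 with standard symbols were compared with Lgr5. Names of the Rik, Gm, LOC or accession kind were left out. Among the 13972, 183 had an r above 0.9 over the 7 arrays. The 5 highest were Avpi1 (0.998), Ckb (0.996), Hspg2 (0.995), Acacb (0.991) and Ggact (0.989). Over the 6 Dll1 arrays alone these 5 had r of 0.997, 0.994, 0.994, 0.993 and 0.98. Ckb, the brain-type creatine kinase, was 0.61 on the Lgr5 array, −0.24 and −0.30 for CD24 high and −1.92 to −1.65 on the other 4 arrays. Hspg2, the basement membrane proteoglycan perlecan, was −0.70 on the Lgr5 array and below that on all Dll1 arrays.

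The other genes of the crypt base and of Wnt signalling moved in both directions. Of 27 listed, 26 were tested, and in CD24 high over CD24 medium 11 were higher and 5 lower by limma, with a median of 0.66. In Lgr5 over CD24 high 13 were higher and 7 lower, with a median of 0.75. Of all genes, 13.2% were higher and 7.36% lower in the first comparison, and 14.7% and 20.8% in the second. The same shares apply to the lists that follow. Kcnq1, a potassium channel, and Agr3, a disulphide isomerase homologue, were 3.69 and 3.60 higher on the Lgr5 array than in CD24 high (limma adjusted p = 0.0007 and 0.00021), and both were lower in CD24 high than in CD24 medium (−1.05 and −1.99, adjusted p = 0.046 and 0.0014). Nkd1, a feedback inhibitor of Wnt signalling, went the other way: it was −0.915 and −1.002 in CD24 high, −4.15 on the Lgr5 array and −4.64 to −4.25 on the other arrays, 3.45 higher in CD24 high than in CD24 medium (adjusted p = 0.00013). Chosen after their values were seen, the Wnt feedback gene Notum, the ephrin receptor Ephb3 and the Lgr5 homologue Lgr4 were also both higher in CD24 high than in CD24 medium (1.35, 2.30 and 1.97) and lower on the Lgr5 array than in CD24 high (−1.60, −2.51 and −0.999, adjusted p = 0.0034, 0.00074 and 0.016). Between the Lgr5 array and CD24 high, Lgr4 and Lgr5 thus differed in opposite directions, but the direction of Lgr5 there is only a check of the sort.

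Dividing-cell genes and Paneth genes differed between the same groups, and their part in the marker results was not tested. Of 20 proliferation genes, 18 were higher and 0 lower on the Lgr5 array than in CD24 high, and in CD24 high over CD24 medium 12 were lower and 1, Pcna, was higher. Their median level was 1.07 on the Lgr5 array, −1.20 and −1.21 for CD24 high, −0.03 and −0.38 for CD24 medium and 0.26 and 0.17 for CD24 low. Uhrf1, which helps to copy DNA methylation as cells divide, was 3.96 higher on the Lgr5 array than in CD24 high (adjusted p = 0.00063), and the replicative helicase subunit Mcm6 and the mitotic kinase Aurka were 3.35 and 3.15 higher (adjusted p = 0.0028 and 0.00027). All 13 Paneth genes were higher in CD24 high than in CD24 medium and lower on the Lgr5 array than in CD24 high, and 12 were higher in CD24 high than in CD24 low, the exception being Reg3a (−0.21, adjusted p = 0.39). All 13 stood well above background on every array. Their median level was 4.48 and 5.22 for CD24 high, −0.57 and −0.23 for CD24 medium, −2.64 and −2.59 for CD24 low and −3.46 on the Lgr5 array, where the lysozyme Lyz1 was at −3.54, the alpha-defensin Defa4 at −4.49 and the lectin Itln1 at −3.02.

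**Figure D4:**
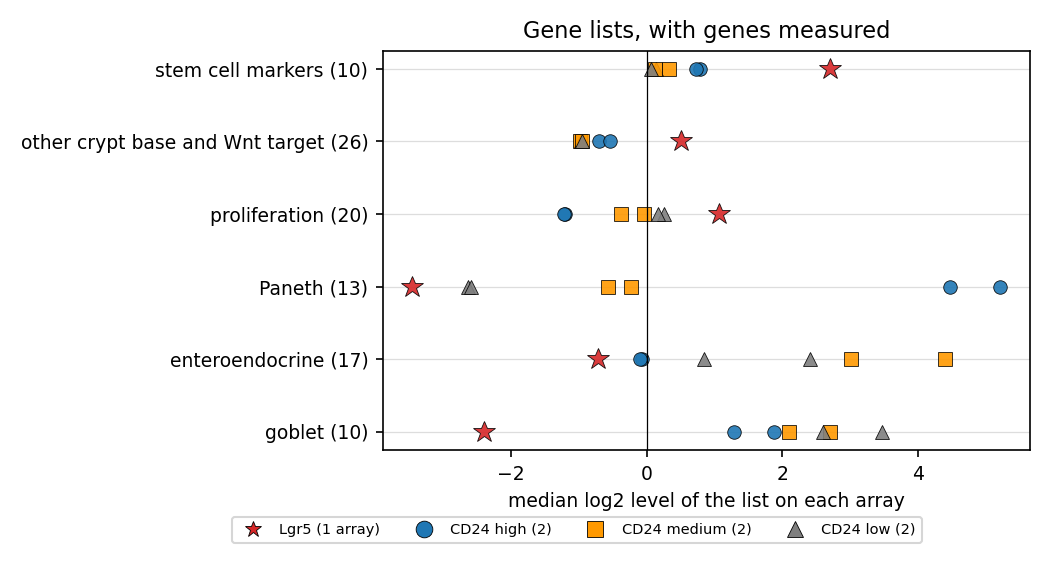
Median log2 level of each gene list (horizontal axis) on each array, with the number of genes measured in brackets and 1 symbol per array. The Lgr5 star is rightmost for the stem cell markers, the crypt base and Wnt list and proliferation, and of the 6 lists plotted the CD24 high circles are rightmost for the Paneth genes.

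Genes of other lineages differed between the groups to unequal extents, and some counts lay near the shares of all genes. Those shares were 13.2% higher and 7.36% lower in CD24 high over CD24 medium. In Lgr5 over CD24 high they were 14.7% and 20.8%, over CD24 medium 8.76% and 10.1%, and over CD24 low 10% and 11.8%. Of 10 goblet genes, 10 were lower on the Lgr5 array than in CD24 medium, 10 than in CD24 low and 8 than in CD24 high, where the secreted factor Spink4 differed by −7.45 and the mucin Muc2 by −6.45. Of 17 enteroendocrine genes, 14 were lower and 1 was higher in CD24 high than in CD24 medium, with Chgb, a chromogranin, at −5.15 and the transcription factors Rfx6 and Pax4 at −4.75 and −4.68. On the Lgr5 array 16 of the 17 were lower than in CD24 medium, 7 than in CD24 low and 3 than in CD24 high, and 0 were higher. Of 4 genes proposed as markers of slowly dividing reserve stem cells (Bmi1, Tert, Hopx and Lrig1), 0 passed by limma in CD24 high over CD24 medium or in Lgr5 over CD24 high (1 and 0 at an unadjusted p under 0.05), with medians of 0.26 and −0.25. Against CD24 low, Bmi1 was called higher in CD24 high (0.86, limma adjusted p = 0.038). Bmi1 and Lrig1 were also called higher on the Lgr5 array than in CD24 low (1.21 and 0.71). In Lgr5 over CD24 high, 6 of 11 enterocyte genes were lower and 0 higher, as were 3 of 7 tuft genes and 6 of 7 mesenchyme genes, and 4 of 8 immune genes were lower and 1, Cd74, was higher. In CD24 high over CD24 medium, 2 enterocyte genes were higher and 2 lower, 2 tuft genes higher, 4 mesenchyme genes higher and 1 lower, and 3 immune genes higher, among them Lyz2, which the Paneth list also holds.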

How the data were processed

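Total RNA, isolated with Trizol, was amplified and labelled from 100 ng with Agilent's low input kit per the labels' protocols, the sample in Cy3 and whole small intestine RNA in Cy5, with no dye exchange, so a dye effect cancels between groups only. Per the file headers, Agilent Feature Extraction 10.5.1.1 gave the deposited spot and background intensity of both channels, detection and outlier flags, and a log10 ratio of Cy5 over Cy3. The authors' deposited series values are log10 ratios that equal this column with its sign turned (largest difference 5e-06, column medians 0 except −0.003049 for CD24 high replicate 2). Coordinates are those of the files (mm9), for which no annotation was used here, so exon and UTR positions are not given.

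Mean signals were corrected with normexp (offset 50) and normalised within arrays by loess (span 0.3), control spots carrying no weight, with R 4.3.3, limma 3.58.1 and data.table (1.17.8). Plots and promoter searches used Python 3.11.15, pandas 2.3.3 and matplotlib 3.10.9. Outlier spots of the sample channel were dropped. Probes were kept when well above background on at least 2 arrays or on the Lgr5 array (25116 probes), and the brightest probe of a gene was taken, giving 17901 genes, 17786 in comparisons with Lgr5. The file's outlier and background flags are the scanner software's, as deposited. Names came from RefSeq accessions for 26918 probes and from the array file for 14256. The model had 1 term for each group over the 7 arrays (3 residual and 3.52 prior degrees of freedom), with Benjamini-Hochberg adjustment over all genes and a threshold of 0.05. The fit was tested on simulated data.

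The members and gene lists were chosen with earlier results of these data known. Named genes are the members, Cd24a and Dll1, and the 5 genes with standard symbols that correlated most with Lgr5. Up to 3 genes per list were also named, those with the largest called difference in CD24 high over CD24 medium or Lgr5 over CD24 high. Other genes, among them the single exceptions to a count (Reg3a, Pcna, Cd74), were chosen after their values were seen. Alternatives changed the background correction, the signals and scaling, the filter, the choice of probe, the slide, the replicate block and the arrays used. Each further probe alone and slide 1 alone for CD24 high over CD24 medium were added after seeing the data.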

Additional observations from a re-analysis of the deposited data

How the results depend on the processing

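Counts of markers called kept their side in Lgr5 over each Dll1 group and in CD24 medium over CD24 low under the settings run. In CD24 high over CD24 medium the count of 5 fell to 3 with the mean of all probes and to 2 on slide 2 alone, and in CD24 high over CD24 low it fell to 3 with the mean of all probes. Leaving out 1 array gave 3 to 6, 4 to 6 and 0 to 0 for CD24 high over CD24 medium, CD24 high over CD24 low and CD24 medium over CD24 low, and 7 to 8, 9 to 10 and 9 to 10 for Lgr5 over CD24 high, medium and low. Where 1 array is left in a group, its spread is assumed to equal that of the other groups. Markers found on all 6 Dll1 arrays numbered 9 with the looser detection flag too.

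Replicate numbers were shared by the CD24 groups. Deviations of same-numbered arrays correlated at 0.29 (high and medium), −0.014 (high and low) and 0.47 (medium and low). These values cannot settle whether same-numbered samples were prepared together, since slide and noise also enter them. The labels do not say, and the main fit did not pair the samples. With the replicate block, 5, 6 and 0 markers were called in the 3 comparisons between CD24 groups, Cdca7 in CD24 high over CD24 low being the added one (adjusted p = 0.045). The Lgr5 array has no pair.

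Some differences turned direction, and the cause was not tested. None of these was called in either direction, except that Rgmb and Soat1 were called higher by their brightest probe. In CD24 high over CD24 low these were Ascl2 (−0.015 on slide 2 alone, −0.036 to 0.24 without 1 array), Scn2b (−0.14 without background subtraction, −0.43 with the sample channel alone, −1.74 with the deposited ratios, −0.022 with slide as a term), Slc12a2 (0.058 on slide 2 alone, −0.31 to 0.058 without 1 array) and Rgmb probe 3 (−0.048). In CD24 high over CD24 medium they were probe 3 of Rgmb (−0.17) and of Soat1 (−0.11) and Scn2b (0.30 on slide 2 alone, −0.30 to 0.30 without 1 array). In Lgr5 over CD24 high it was Smoc2 (0.82 with probe 2, 0.13 with the mean of probes). In CD24 medium over CD24 low they were Cdca7 (−0.30 to 0.066 without 1 array), Olfm4 (0.0081 with the sample channel alone, −0.44 to 0.16 without 1 array), probe 2 of Rgmb (−0.19), Smoc2 (−0.17) and Soat1 (−0.10), Scn2b (−0.17 on slide 2 alone, −0.019 with slide as a term, −0.17 to 0.43 without 1 array), Smoc2 (−0.020 with the mean of probes, −0.23 to 0.49 without 1 array), Soat1 (−0.069 to 0.50 without 1 array) and Tnfrsf19 (0.13 without background subtraction, 0.23 with the sample channel alone, 0.40 with the deposited ratios).

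Counts over all genes moved more. In CD24 high over CD24 low they were 5113 without background subtraction, 5665 with the deposited ratios and 1239 on slide 2 alone against 3176, in CD24 high over CD24 medium 845 on slide 2 alone against 3677, in CD24 medium over CD24 low 9 to 34 against 20, and in Lgr5 over CD24 low 1404 with slide as a term against 3877. Without 1 array they were 1680 to 3395, 1249 to 4018, 9 to 37, 2296 to 3964 and, for Lgr5 over CD24 medium, 1389 to 3717 against 3363. With the deposited ratios 2230 of 5199 calls in CD24 high over CD24 medium were higher, and with the sample channel alone 1890 of 4125, against 2360 of 3677. In Lgr5 over CD24 high, 4188 of 7407 and 3806 of 6423 were higher against 2611 of 6305. The deposited ratios put the median of all genes at −0.20, −0.23 and 0.17 in CD24 high over CD24 medium, CD24 high over CD24 low and Lgr5 over CD24 high. Dim probes in CD24 high limit how low a marker could be measured there.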
